A study of Mus musculus with 15 samples.

Results

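The comparison described here is the plasma cell step within IgG1-expressing mouse cells: 3 RNA-seq libraries of IgG1 plasma cells (IgG1 PC) were set against 3 libraries of IgG1 iGC cells, which the deposited column names call NON. These 6 libraries were taken by their labels from a series of 15, which also holds 3 libraries each of IgE plasma cells, IgE iGC cells and unsorted day 6 cells. All 5 groups came from wild-type B cells with no further treatment. B cells were grown for 6 days on 40LB cells, a fibroblast feeder line that supplies CD40 ligand and the survival factor BAFF, with 100 ng/ml IL-4. The day 6 group was taken at that point, and the 4 sorted groups were moved off the feeder, kept unstimulated for 2 more days and sorted on day 8. The sort markers and the age and strain of the mice were not given in the sources used here. The labels call the libraries biological replicates and do not say whether equal replicate numbers share a mouse or a culture. The p-values therefore measure spread among libraries, estimated for each gene over all 15 together. Such cultures are used to model germinal centre B cells and their plasma cell progeny, and lack the T cells and follicular dendritic cells of a germinal centre.

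A plasma cell forms when an activated B cell stops reading out its antigen-presenting, germinal centre program and turns into a cell that secretes antibody. The transcription factors IRF4 and BLIMP-1 (gene Prdm1) drive this switch and XBP1 enlarges the secretory pathway, whereas PAX5, BCL6 and BACH2 hold cells in the B cell state. IgG1 is the other main class to which mouse B cells switch under IL-4 and CD40 signals beside IgE.

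Total expected counts per library ranged from 31378100 to 37583900 in IgG1 iGC and from 32638700 to 54068000 in IgG1 PC. Levels are given as CPM, counts scaled to library depth with TMM factors, and values listed for a group are in the order of replicates 1, 2 and 3. IgG1 PC replicate 1 was less like its fellow replicates than any pair within another group: Pearson's r of log2 CPM, across genes, was 0.978 and 0.983 for its pairs with replicates 2 and 3, 0.986 between these and 0.990 for each IgG1 iGC pair, and the lowest in any other group was 0.984. The heavy chain counts matched the labelled class: Ighg1 made up 97.9% ± 0.542 (SD, n = 3) of the summed Ighg1 and Ighe counts in IgG1 PC and 94.6% ± 0.565 in IgG1 iGC. Markers of other cells were checked. The 20 fibroblast markers, the lineage of the feeder, summed to 237, 79.8 and 227 CPM in IgG1 PC and to 37.1, 74.1 and 39.6 CPM in IgG1 iGC, so replicates 1 and 3 of the plasma cells stood above all other sorted libraries and replicate 2 was close to iGC replicate 2. The day 6 cells had 417 to 668 CPM, IgE iGC 62.8 to 85.5 CPM and IgE PC 27.8 to 45.5 CPM. Col1a1, encoding a collagen chain, stood at 11.8, 24.2 and 12.9 CPM in iGC and 88.8, 31.2 and 75.2 CPM in PC. Of all genes tested, 30.1% were called higher in IgG1 PC and 29.0% lower (edgeR, adjusted p below 0.05). Of the 18 fibroblast markers with enough counts to test, 13 were called higher and 0 lower, with a median log2 fold change of 1.80. With IgG1 PC replicates 1 and 3 left out, 3 were called, a check that leaves a lone PC library whose spread is taken from the other groups. None of the 20 was at 0 in all 6 libraries.

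**Figure D1:**
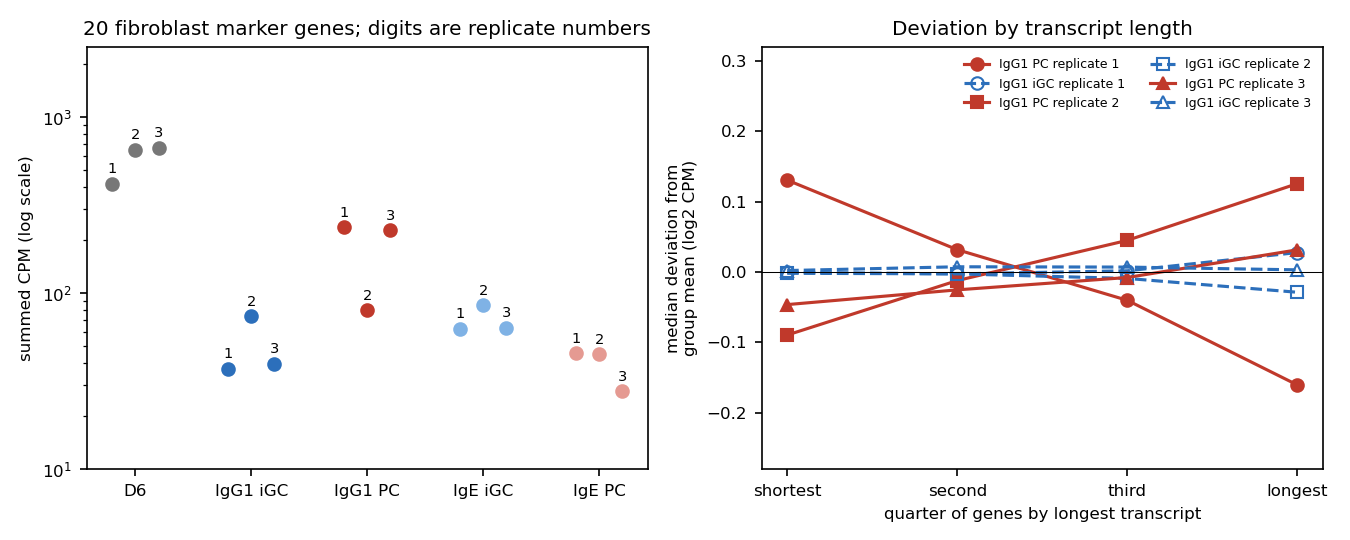
Left, summed CPM of 20 fibroblast marker genes in each of the 15 libraries on a log axis, labelled by replicate number. Right, for genes in 4 equal groups by longest annotated transcript, the median deviation of each IgG1 library from its group mean in log2 CPM; IgG1 PC replicates 1 and 3 hold 237 and 227 CPM of the markers, and replicates 1 and 2 of IgG1 PC deviate with length in opposite directions.

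Markers of other lineages were low or lower in PC. T cell markers summed to 16.1 to 19.9 CPM in PC and 19.2 to 20.3 CPM in iGC, with Cd8a, Trbc1 and Trbc2 at 0 in all 6 libraries. NK cell markers gave 1.23 to 1.79 against 2.87 to 3.49 CPM, myeloid markers 43.1 to 62.5 against 93.9 to 100.0 CPM (Cd14, Fcgr1, C1qa, Marco and S100a9 at 0) and dendritic cell markers 42.4 to 64.4 against 118 to 122 CPM (Clec9a at 0). Mast cell and basophil markers gave 0.518 to 0.849 against 0.174 to 0.429 CPM (Fcer1a, Cpa3, Mcpt8, Tpsb2 and Prss34 at 0), and erythroid and platelet markers 4.44 to 6.65 against 2.65 to 7.10 CPM. Several genes on these lists, such as Cd5, Itgam and Flt3, are also expressed by B lineage cells.

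Across 15692 genes tested, 9273 (59.1%) were called between IgG1 PC and IgG1 iGC at an adjusted p below 0.05 (edgeR's quasi-likelihood test, Benjamini-Hochberg). Of these, 4720 (30.1%) were higher and 4553 (29.0%) lower in PC, and the middle gene of all those tested stood at a log2 fold change of 0.013. At least 2-fold changes ran mostly upward, with 2206 genes (14.1%) higher and 788 (5.02%) lower. The up-down split depended on the scaling. Scaled to library totals, 3226 genes were called higher and 6840 lower, and the middle gene stood at -0.22. At least 2-fold changes numbered 1778 and 1369. Counts of rises and falls given below with library totals are to be set beside these, not beside 30.1% and 29.0%. Immunoglobulin genes and Jchain held on average 17.7% of these totals in IgG1 PC and 1.42% in IgG1 iGC. Of the 2206 genes at least 2-fold higher, 722 reached less than 1 CPM in either group and 756 reached 10 CPM. The lowest IgG1 PC library was replicate 2, the one with few fibroblast transcripts, for 59.1% of the genes at least 2-fold higher, and replicate 1 for 79.8% of those at least 2-fold lower. With IgG1 PC replicates 1 and 3 left out, 1503 genes were at least 2-fold higher and 471 at least 2-fold lower. The part of the feeder-type transcripts in these counts was not tested. In bulk RNA, fewer cells of a type and less RNA per cell cannot be told apart.

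**Figure D2:**
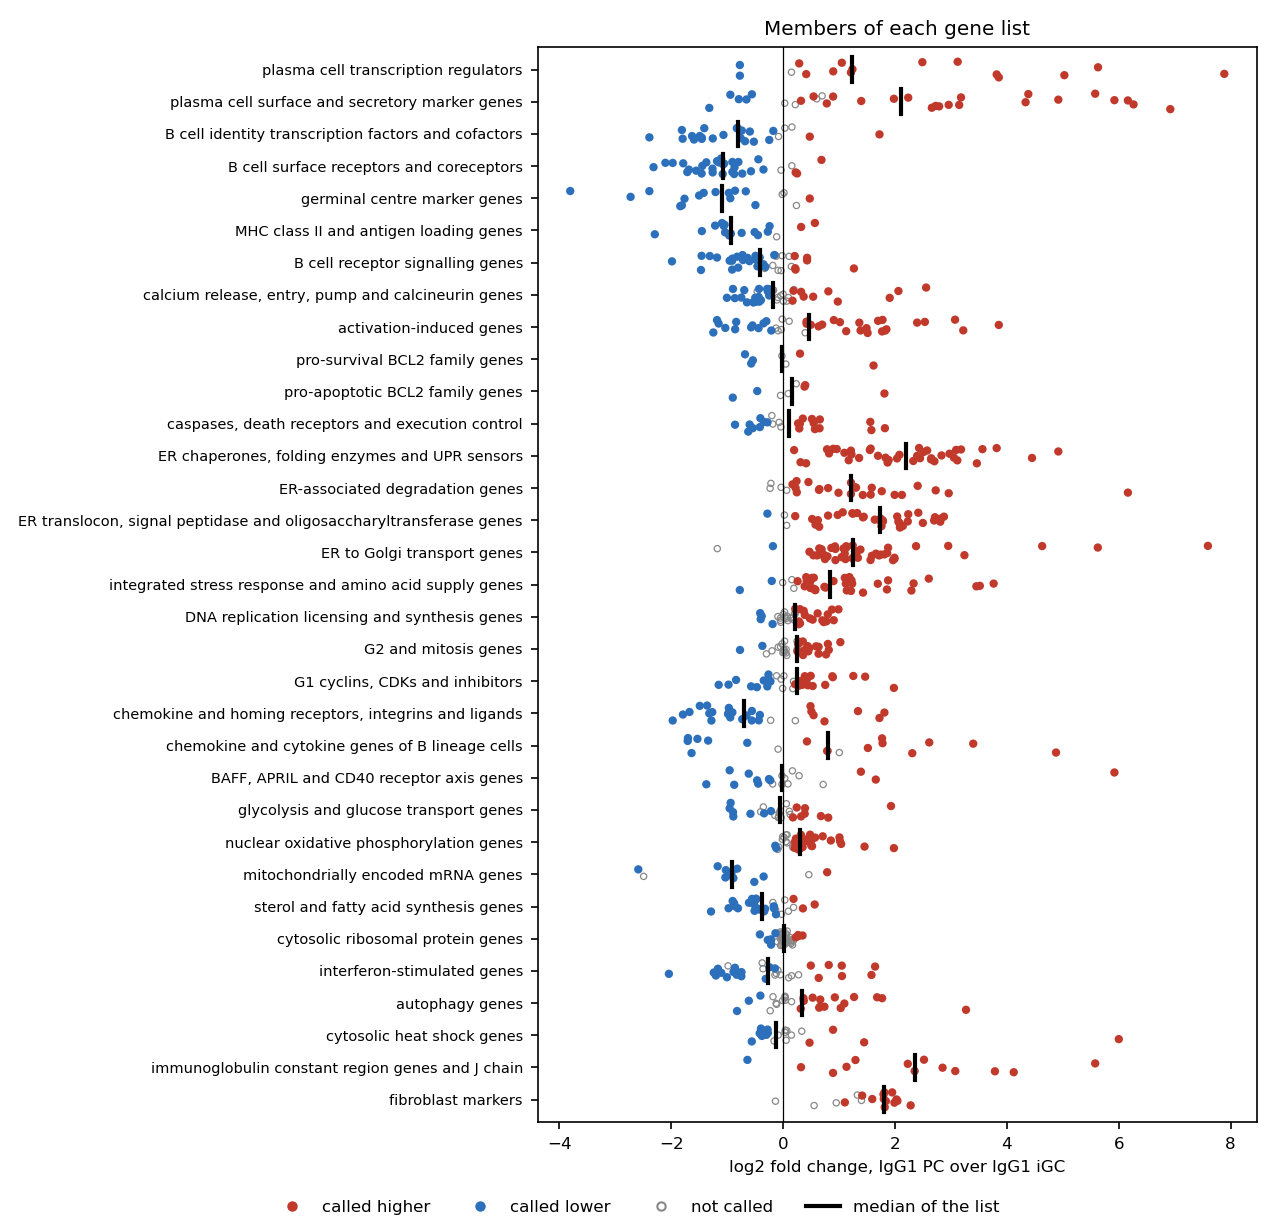
Log2 fold change, IgG1 PC over IgG1 iGC, of each tested member of 32 functional gene lists and of the fibroblast markers; filled points passed the test, open points did not, and the bar is the median of the list. The 40 ER folding genes all lie above 0, while the B cell surface, MHC class II and germinal centre lists have medians near -1.

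The regulators of the plasma cell program rose steeply. Of 16 transcription regulators linked to plasma cells, 13 were called higher and 2 lower, with a median log2 fold change of 1.23, beside 30.1% and 29.0% of all genes. Prdm1 (chromosome 10, 44437177 to 44528501, GRCm38), which encodes BLIMP-1, stood at 4.44, 3.84 and 3.68 CPM in iGC and 199, 212 and 183 CPM in PC. Every PC library lay far above every iGC library, a 49.5-fold difference (log2 5.63 ± 0.14, SE; edgeR adjusted p = 1.3e-13). Irf4 (chromosome 13, 30749226 to 30766976) was already present in iGC at 96.1, 92.7 and 89.7 CPM and reached 1409, 1397 and 1224 CPM in PC, 14.5-fold higher (log2 3.85 ± 0.081; edgeR adjusted p = 1.7e-14). Xbp1 (chromosome 11, 5520659 to 5525893), the transcription factor of the unfolded protein response, went from 140, 138 and 124 to 2397, 1664 and 1607 CPM. Its groups did not overlap, but PC replicate 1 was well above the other PC libraries (log2 3.82 ± 0.13; edgeR adjusted p = 3.1e-12).

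Bhlha15 (chromosome 5, 144190286 to 144194441), which encodes MIST1, a factor of professional secretory cells, had the largest rise in this list. It was near the limit of detection in iGC at 1.03, 0.805 and 0.550 CPM and stood at 241, 168 and 166 CPM in PC (log2 7.89 ± 0.20; edgeR adjusted p = 1.4e-13). Creb3l2, an ER-anchored transcription factor, rose 32.6-fold. The elongation factor Ell2, which favours the secreted form of heavy chain mRNA, rose 5.62-fold, and its partner Eaf2 8.70-fold. Pou2af1, the B cell coactivator OCA-B, rose by a log2 fold change of 0.41. The members that fell were Ikzf1 and Ikzf3, encoding the lymphoid factors Ikaros and Aiolos, at -0.77 and -0.77. The rise differed between the isotypes for some of these genes: the IgG1 step exceeded the IgE step for Bhlha15 (difference in log2 fold change 1.03 ± 0.29; edgeR adjusted p = 0.01) and Eaf2 (1.38 ± 0.20; 6.8e-05) and fell short of it for Irf4 (-0.64 ± 0.10; 1.8e-04). In the list it was above in 2 and below in 7. Over all genes tested this difference was called for 42.9%, with 23.1% above 0 and 19.8% below.

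**Figure D3:**
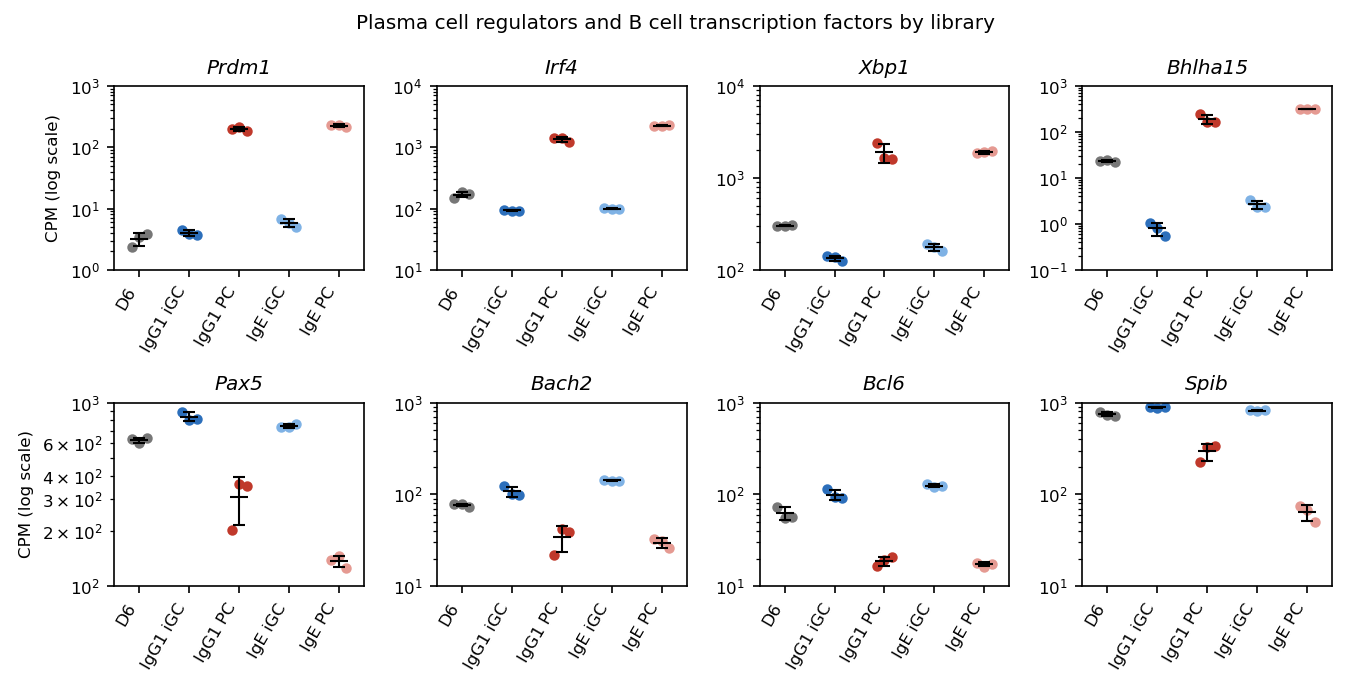
CPM of 4 plasma cell regulators (top) and 4 B cell transcription factors (bottom) in each of the 15 libraries on log axes, with group mean and SD (n = 3). In IgG1 PC the regulators sit far above IgG1 iGC, and Pax5, Bach2 and Spib are lowest in replicate 1.

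The factors that hold B cell identity fell, with smaller fold changes than the leading plasma cell regulators. Of 25 tested B cell transcription factors and cofactors, 20 were called lower and 2 higher, beside 29.0% and 30.1% of all genes. The median was -0.81. Pax5 (chromosome 4, 44524757 to 44710487) stood at 892, 808 and 815 CPM in iGC and 202, 361 and 353 CPM in PC. The groups did not overlap, and PC replicate 1 was the lowest (log2 -1.46 ± 0.15; edgeR adjusted p = 1.9e-06). Bcl6 (chromosome 16, 23965052 to 23988852), the repressor that defines germinal centre B cells, fell from 114, 93.4 and 91.5 to 16.7, 19.1 and 20.9 CPM (log2 -2.39 ± 0.11; edgeR adjusted p = 1.5e-10). Bach2, a repressor of Prdm1, stood at 124, 100 and 98.7 CPM in iGC and 22.0, 42.5 and 39.0 CPM in PC, and again PC replicate 1 was lowest. The ETS factor Spib, the early B cell factor Ebf1, Bcl11a and the MHC class II transactivator Ciita fell as well, with log2 fold changes of -1.59, -1.41, -1.80 and -1.45. Tcf3, encoding the E protein E2A, was not called (log2 -0.082), but was called lower with library totals (-0.31) and with PC replicates 1 and 3 left out (-0.20). The higher members were Mef2b (0.48) and Id1 (1.72). Id1 stood at 0.441, 1.05 and 0.608 CPM in iGC and 4.20, 0.869 and 2.01 CPM in PC, and without PC replicate 1 it was not called (1.03).

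The germinal centre list followed, with 14 of 18 tested members lower and 1 higher (Mef2b, also on the list above). Of all genes, 29.0% were lower and 30.1% higher. The median of the list was -1.09. Bcl6 is on both lists, and Cd38, one of the lower members, is also on the plasma cell surface list below. Mybl1, encoding the germinal centre factor A-MYB, fell from 158, 128 and 128 to 11.6, 30.1 and 19.7 CPM (log2 -2.73 ± 0.23; edgeR adjusted p = 2.7e-07). Rgs13, a regulator of chemokine receptor signalling, stood at 1.13, 1.13 and 1.51 CPM in iGC and 0.105, 0.154 and 0 CPM in PC. S1pr2, the receptor that confines cells to the follicle, the motility regulator Gcsam and the death receptor Fas fell, with log2 fold changes of -0.97, -1.76 and -0.86.

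The surface changed as well. Of 30 plasma cell surface and secretory marker genes, 21 were called higher and 5 lower (median 2.11), beside 30.1% and 29.0% of all genes. The lower ones were Itgb7, Cd38, Cd37, Itga4 and Itgb1, which B cells also carry. Sdc1 (chromosome 12, 8771323 to 8793715), which encodes the plasma cell marker CD138, stood at 0.956, 1.75 and 1.54 CPM in iGC and 207, 148 and 156 CPM in PC, 121-fold higher with no overlap (log2 6.92 ± 0.19; edgeR adjusted p = 3.0e-13). Tnfrsf17, the BAFF and APRIL receptor BCMA that long-lived plasma cells depend on, rose from below 0.1 CPM in every iGC library to 5.28, 3.19 and 3.54 CPM (log2 5.92 ± 0.34; edgeR adjusted p = 1.2e-09). The inhibitory receptor Tigit rose 76.9-fold, Cd28, better known as the costimulatory receptor of T cells, 20.2-fold, Cd93 7.78-fold and Epcam 20.9-fold. Cxcr4, the chemokine receptor for bone marrow, stood at 45.5, 35.0 and 29.8 CPM in iGC and 46.5, 39.5 and 42.7 CPM in PC and was not called (log2 0.22 ± 0.11; edgeR adjusted p = 0.12). Without iGC replicate 1, the highest of its group, Cxcr4 was called at 0.40. Tnfrsf13b, encoding TACI, was not called (0.029), and with library totals it was called lower at -0.21.

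Among 32 B cell surface receptors, 27 were called lower and 3 higher (median -1.08), beside 29.0% and 30.1% of all genes. Ms4a1, encoding CD20, fell from 2599, 2800 and 2832 to 623, 1092 and 795 CPM (log2 -1.71 ± 0.14; edgeR adjusted p = 8.4e-08). The complement receptor Cr2 fell from 56.6, 56.95 and 59.6 to 8.68, 14.4 and 11.3 CPM, the largest fall in the list. Cd79b fell by 0.35. Its partner in the B cell receptor, Cd79a, was not called (-0.037; edgeR adjusted p = 0.71), although without PC replicate 1 it was called lower at -0.15 and with library totals at -0.28. In 24 of the 32 genes the IgG1 step lay above the IgE step, and in 2 below, beside 23.1% and 19.8% of all genes. Cd72, an inhibitory coreceptor, had a log2 fold change of -1.08 in IgG1 and -5.21 in IgE cells (difference 4.13 ± 0.16; edgeR adjusted p = 1.3e-09). Under library totals the count above was 27 of 32.

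Genes of MHC class II and antigen loading fell too: 14 of 17 were lower and 2 higher (median -0.93), beside 29.0% and 30.1% of all genes. H2-Aa, the alpha chain of I-A, was at 2926, 3025 and 3003 CPM in iGC and 2145, 2092 and 2049 CPM in PC, a modest fall with no overlap (log2 -0.51 ± 0.073; edgeR adjusted p = 2.7e-05), against -1.63 in IgE cells (difference called, edgeR adjusted p = 1.1e-06). The peptide exchange chains H2-DMb1 and H2-DMb2 fell, at -0.96 and -0.93. March1, the ubiquitin ligase that removes MHC class II from the surface, had the largest fall of the list, at -2.29. The invariant chain Cd74 was not called (-0.12); without PC replicate 1 it was called lower at -0.21 and with library totals at -0.35.

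Immunoglobulin transcripts made up a large share of the plasma cell libraries. They and Jchain held 1.45%, 1.41% and 1.39% of all counts in IgG1 iGC and 21.7%, 15.3% and 16.1% in IgG1 PC, with replicate 1 the highest. The means were 1.42% ± 0.0306 and 17.7% ± 3.50 (SD, n = 3), a difference of 16.3 percentage points (exact permutation test, two-sided, p = 0.1, the smallest that 3 against 3 allows). Ighg1 (chromosome 12, 113325240 to 113330523), the constant region of the IgG1 heavy chain, stood at 6404, 6090 and 6116 CPM in iGC and 111900, 69870 and 74900 CPM in PC (log2 3.79 ± 0.14; edgeR adjusted p = 1.0e-11). The kappa light chain constant gene Igkc rose 17.4-fold and Jchain, which links IgM and IgA subunits and is made by plasma cells of all classes, 47.8-fold. Of 13 genes on the constant region list, Jchain included, 12 were called higher and 1 lower, beside 30.1% and 29.0% of all genes. The lower one was Ighd (-0.64), which was not called without PC replicate 3 (-0.48) or without iGC replicate 1 (-0.54). Ighe rose as well, from 318, 368 and 372 to 1950, 1348 and 2101 CPM, but stayed a small part of the heavy chain counts. Constant genes of different classes are similar in sequence and their expected counts can share reads, so the values of the rarer classes are uncertain.

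Most genes of the machinery that folds, checks and ships antibody were higher in PC. All 40 tested genes for ER chaperones, folding enzymes and sensors of the unfolded protein response were called higher (median 2.20, or 33 of 40 at least 2-fold), beside 30.1% of all genes. Hspa5 (chromosome 2, 34771970 to 34777547), the central ER chaperone BiP, stood at 435, 452 and 422 CPM in iGC and 3095, 2450 and 2251 CPM in PC (log2 2.57 ± 0.096; edgeR adjusted p = 5.4e-12). Hsp90b1, encoding GRP94, went from 536, 538 and 522 to 7630, 6114 and 5117 CPM, 11.8-fold higher. Ern1, encoding IRE1, the sensor that splices Xbp1 mRNA, rose 21.8-fold, Fkbp11 30.3-fold, Creld2 11.0-fold and Pdia6 6.26-fold. The smallest change was that of Dnajc1 (0.20), which was not called with library totals (-0.035), without PC replicate 2 (0.12) or without iGC replicate 2 (0.17).

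ER-associated degradation returns misfolded chains to the proteasome. Of 27 genes for it, 23 were called higher and 0 lower (median 1.21), beside 30.1% and 29.0% of all genes. Derl3, a channel component, stood at 2.85, 2.17 and 2.03 CPM in iGC and 230, 132 and 148 CPM in PC (log2 6.16 ± 0.21; edgeR adjusted p = 1.0e-11), and the mannosidase-like Edem2 rose 7.78-fold. Of 36 genes for the translocon, signal peptidase and oligosaccharyltransferase, which thread and glycosylate new chains, 33 were higher and 1 lower (median 1.74). The channel subunit Sec61b went from 42.9, 44.4 and 46.9 to 249, 157 and 165 CPM and the glycosylation subunit Ddost rose 7.03-fold. The one that fell was Tusc3 (-0.28), an alternative subunit of the oligosaccharyltransferase. Of 45 ER to Golgi transport genes, 43 were higher and 1 lower (median 1.24). Sec24d, a cargo adaptor of COPII vesicles, stood at 4.90, 6.09 and 5.27 CPM in iGC and 297, 249 and 257 CPM in PC, 49.3-fold higher. Sec24b, its paralogue, was the lower one (-0.18), and was not called without PC replicate 1 (-0.11), without iGC replicate 1 (-0.15) or without iGC replicate 2 (-0.19).

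The promoters of these genes were searched for the elements through which the unfolded protein response is known to act. RefSeq windows (GRCm38.p6) of 250 bases before to 50 bases after the start were used, on both strands. The ER stress element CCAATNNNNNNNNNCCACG was found in 0.137% of 27025 genes with a window and in 7 of the 35 ER folding genes with one, 2 of 19 degradation genes, 0 of 27 translocon genes and 0 of 38 ER to Golgi genes. The stretches below are shown because these genes are among those described above; capitals mark the element, in either orientation, and all lie upstream of the RefSeq start (the gene span given above for Hspa5, from another annotation, begins further upstream).

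Hspa5 (chr2:34772010-34772058, plus strand): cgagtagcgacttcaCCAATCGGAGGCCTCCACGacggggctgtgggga
Creld2 (chr15:88819505-88819553, plus strand): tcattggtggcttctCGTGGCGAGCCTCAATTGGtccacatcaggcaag
Pdia6 (chr12:17266476-17266524, plus strand): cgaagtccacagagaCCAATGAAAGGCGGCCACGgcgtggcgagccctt
Derl3 (chr10:75893227-75893275, plus strand): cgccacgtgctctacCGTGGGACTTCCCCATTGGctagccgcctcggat

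The unfolded protein response element TGACGTGG was in 0.714% of all windows, in 8 of 38 ER to Golgi genes (21.1%), 2 of 35 ER folding genes (5.71%), 2 of 19 degradation genes and 0 of 27 translocon genes. Its reverse complement contains CCACG, which also ends the ER stress element. The 3 stretches shown belong to Sec24d, to the KDEL receptor Kdelr3, which rose 9.45-fold, and to the disulfide isomerase Txndc5, which rose 9.06-fold, again with the element in capitals.

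Sec24d (chr3:123267455-123267492, plus strand): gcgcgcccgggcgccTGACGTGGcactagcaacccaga
Kdelr3 (chr15:79516363-79516400, plus strand): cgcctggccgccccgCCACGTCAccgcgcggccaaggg
Txndc5 (chr13:38528030-38528067, minus strand): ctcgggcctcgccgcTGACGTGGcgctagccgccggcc

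Most of these secretory genes rose less in IgG1 than in IgE cells. The IgG1 step was called below the IgE step in 30 of 40 ER folding genes, 23 of 27 degradation genes, 25 of 36 translocon genes and 38 of 45 ER to Golgi genes, beside 19.8% of all genes, and above it in 0, 0, 1 and 0. With library totals the counts below were 27, 18, 23 and 31. With IgG1 PC replicates 1 and 3 left out they were 35, 26, 33 and 42. Hspa5 differed by -1.25 ± 0.13 (edgeR adjusted p = 2.7e-06), the oxidase Ero1l by -1.93 ± 0.11 (1.7e-08) and the degradation adaptor Sel1l by -1.65 ± 0.078 (6.0e-09). For Sec24d the IgG1 and IgE steps were 5.62 and 5.67 and the difference was not called (-0.044 ± 0.12).

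**Figure D4:**
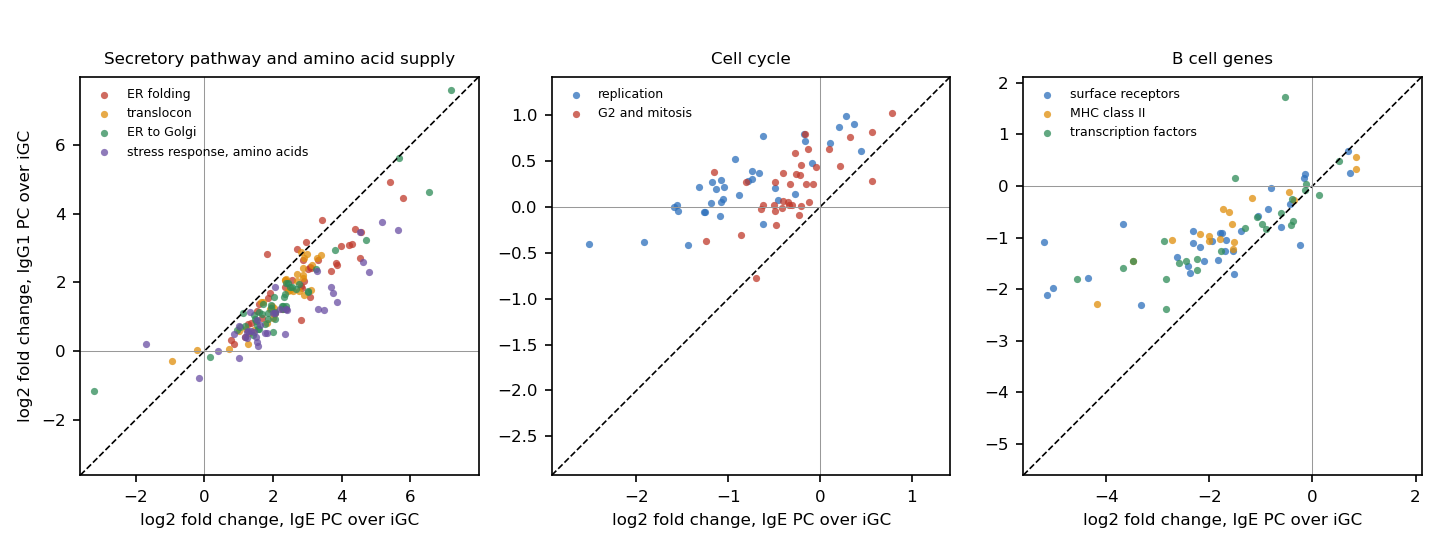
Log2 fold change of the plasma cell step in IgG1 cells (vertical) against that in IgE cells (horizontal) for members of 4 secretory and stress lists (left), 2 cell cycle lists (middle) and 3 B cell lists (right); the dashed line marks equal change. Most secretory and stress genes lie below the line, and most cell cycle and B cell genes above it.

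Most genes of the integrated stress response and of amino acid supply were higher as well. ATF4 is the central factor of this response and activates transporters, synthesis enzymes and aminoacyl-tRNA synthetases. Of 38 such genes, 33 were called higher and 2 lower (median 0.83), beside 30.1% and 29.0% of all genes. Atf4 stood at 201, 206 and 195 CPM in iGC and 517, 384 and 391 CPM in PC (log2 1.10 ± 0.088; edgeR adjusted p = 4.9e-08). The cationic amino acid carrier Slc7a3 went from 2.70, 2.33 and 2.90 to 42.0, 31.4 and 34.6 CPM, the shared heavy chain Slc3a2 rose 6.08-fold and its partners Slc7a5 and Slc7a11 3.62-fold and 11.4-fold. The glutathione-degrading enzyme Chac1 rose 11.0-fold, the proline enzyme Pycr1 5.04-fold, Asns 2.28-fold and Ddit3, encoding the stress factor CHOP, 2.33-fold. Ddit4, an inhibitor of mTORC1, fell by 0.77. The other fall was that of the transporter Slc7a1 (-0.20), which was not called without iGC replicate 1 (-0.18).

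In 34 of the 38 genes the IgG1 step was below the IgE step and in 0 above, beside 19.8% and 23.1% of all genes. With library totals, for which the share of all genes is not given here, 31 were below. On the log2 scale Slc3a2 rose by 2.60 in IgG1 and 4.63 in IgE cells (difference -2.03 ± 0.14; edgeR adjusted p = 1.2e-07), and the pseudokinase Trib3, a target of CHOP, by 1.43 and 3.85 (-2.43 ± 0.23; 1.9e-06). The amino acid response element TGATGCAA was in 1.03% of all windows and in 9 of the 31 of these genes that had one (29.0%). The stretches of Slc7a11, which holds 2 copies, Chac1 and Pycr1 are shown as the matches among the larger rises, with the element in capitals in either orientation.

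Slc7a11 (chr3:50443638-50443694, minus strand): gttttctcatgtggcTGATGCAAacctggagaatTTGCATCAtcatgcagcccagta
Chac1 (chr2:119351034-119351071, plus strand): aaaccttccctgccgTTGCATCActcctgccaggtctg
Pycr1 (chr11:120643829-120643866, minus strand): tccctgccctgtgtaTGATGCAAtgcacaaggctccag

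Transcripts of genes for signalling downstream of the B cell receptor were lower in part, and signalling itself was not measured. Of 38 genes, 23 were lower and 6 higher (median -0.42), beside 29.0% and 30.1% of all genes. The scaffold Bank1 fell from 256, 260 and 268 to 46.7, 76.3 and 73.9 CPM (log2 -1.99 ± 0.13; edgeR adjusted p = 8.7e-09). The kinase Lyn, which also starts inhibitory signals, stood at 210, 210 and 213 CPM in iGC and 98.9, 116 and 111 CPM in PC, with tight replicates (-0.96 ± 0.054). The kinases Syk and Btk had log2 fold changes of -0.42 and -0.32, and protein kinase C beta (Prkcb) of -1.31. Vav3, a guanine nucleotide exchange factor, rose by 1.26.

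Calcium genes, which the series as a whole is concerned with, split. Of 39 genes for calcium release, entry, pumps and calcineurin signalling, 10 were higher and 18 lower (median -0.19), beside 30.1% and 29.0% of all genes. Saraf (chromosome 8, 34154575 to 34170821), a brake on store-operated entry, stood at 20.6, 21.9 and 20.5 CPM in iGC and 149, 110 and 112 CPM in PC, a 5.88-fold rise with no overlap (log2 2.56 ± 0.11; edgeR adjusted p = 2.2e-11). Kcnn4 (chromosome 7, 24370263 to 24386690), the calcium-activated potassium channel KCa3.1, rose from 50.7, 52.9 and 50.1 to 245, 159 and 173 CPM (log2 1.91 ± 0.12; edgeR adjusted p = 3.4e-09). The pumps diverged: Atp2a2 (SERCA2), which refills the ER, rose by 0.81, while Atp2a3 (SERCA3) fell by 0.53. The entry channel Orai1 stood at 9.37, 10.2 and 10.1 CPM in iGC and 12.6, 9.21 and 12.3 CPM in PC and was not called (0.19); without PC replicate 2 it was called at 0.31. The ER sensor Stim1 stood at 93.6, 89.5 and 86.4 CPM in iGC and 93.2, 88.3 and 88.5 CPM in PC. Its groups overlapped and it was not called, except with library totals, at -0.23.

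In calcineurin signalling the regulatory subunit Ppp3r1 fell from 140, 143 and 141 to 63.4, 99.7 and 69.2 CPM (-0.86 ± 0.12) while the catalytic isoform Ppp3cc rose by 0.98. The target factors Nfatc1 and Nfatc3 fell, at -0.50 and -0.75. The Saraf and Atp2a2 steps were smaller than in IgE cells, with differences of -1.20 ± 0.14 (edgeR adjusted p = 1.4e-05) and -0.99 ± 0.075 (2.0e-07). The Kcnn4 step was 1.91 in IgG1 and 1.97 in IgE cells and the difference was not called (-0.062 ± 0.16).

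Of 40 genes induced by activation, 22 were higher and 12 lower (median 0.46), beside 30.1% and 29.0% of all genes, so the share of falls was near that of all genes. The AP-1 members Fos and Jun stood at 22.0, 17.9 and 11.0 and 20.1, 20.6 and 12.2 CPM in iGC and at 196, 148 and 87.7 and 117, 89.7 and 72.8 CPM in PC. Replicate 3 was the lowest for both genes in both groups, and the groups did not overlap (Fos log2 3.07 ± 0.32, edgeR adjusted p = 5.6e-06; Jun 2.40 ± 0.21, 4.6e-07). The phosphatase Dusp5 rose 5.79-fold. Egr1 was 2.02-fold higher (1.02 ± 0.27) and its relative Egr3 fell by 1.03. Nr4a1, a reporter of antigen receptor signalling, stood at 5.39, 5.13 and 4.35 CPM in iGC and 4.27, 4.36 and 4.96 CPM in PC and was not called (-0.13 ± 0.15), whereas its IgE step was -1.80 (difference 1.68 ± 0.25; edgeR adjusted p = 1.0e-04). Myc, a driver of growth, and Bhlhe40, a repressor, fell at -0.57 and -1.25.

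Of 7 tested pro-survival BCL2 family genes, 2 were higher and 3 lower, beside 30.1% and 29.0% of all genes. With so few members nothing is read from these counts. Bcl2l1, encoding BCL-XL, rose from 16.8, 16.9 and 16.0 to 57.9, 43.5 and 51.3 CPM (log2 1.62 ± 0.089; edgeR adjusted p = 6.3e-10), Bcl2 fell from 143, 138 and 140 to 92.7, 108 and 89.0 CPM (-0.54 ± 0.082; 4.4e-05), and Mcl1, on which plasma cells depend, was not called (-0.023) except with library totals, at -0.26. The near-identical copies Bcl2a1b and Bcl2a1d were lower as well. Their counts are uncertain, and Bcl2a1d was not called with PC replicates 1 and 3 left out (-0.39). Of 8 pro-apoptotic members, 3 were higher and 2 lower; without PC replicate 2 the higher ones numbered 5, and with library totals 1 was higher and 4 lower. Bcl2l11, encoding the death initiator BIM, rose from 60.8, 57.5 and 58.3 to 200, 214 and 206 CPM with replicates close together (log2 1.81 ± 0.050; edgeR adjusted p = 2.1e-13), and Bid fell by 0.90. Of these, Bcl2l1 and Bcl2l11 rose more in IgG1 than in IgE cells, with differences of 0.91 ± 0.13 (edgeR adjusted p = 4.8e-05) and 0.91 ± 0.070 (1.9e-07), and Bcl2 went the other way, with -0.54 in IgG1 and 0.47 in IgE cells. Caspases, death receptors and execution genes counted 12 higher and 8 lower of 24, beside 30.1% and 29.0% of all genes. The share of falls was near the latter. With library totals, where more of all genes were lower, these genes counted 7 and 11.

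Of 36 DNA replication genes, 17 were higher and 4 lower (median 0.21), and of 36 G2 and mitosis genes 18 were higher and 2 lower (median 0.25), beside 30.1% and 29.0% of all genes. These counts depended on the scaling: with library totals the counts were 10 higher and 10 lower for replication and 8 higher and 5 lower for mitosis. With that scaling more of all genes were lower than higher, so 30.1% and 29.0% do not apply to these counts. Mki67, encoding the proliferation marker Ki-67, stood at 731, 563 and 636 CPM in iGC and 1143, 1400 and 1379 CPM in PC, 2.03-fold higher with no overlap (log2 1.02 ± 0.10; edgeR adjusted p = 5.8e-07). Cdc6, which loads the replicative helicase, rose 1.99-fold and the kinase Cdk1 1.74-fold. The helicase subunit Mcm5 stood at 153, 142 and 139 CPM in iGC and 165, 181 and 181 CPM in PC (0.28), and with library totals it was not called (0.049). Its IgE step was -1.18.

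The difference from the IgE step ran 1 way: in 35 of 36 replication genes the IgG1 step was above the IgE step and in 0 below, beside 23.1% of all genes (36 with library totals and 35 with IgG1 PC replicates 1 and 3 left out). For mitosis genes 25 of 36 were above and 0 below (30 and 24). In IgE cells 4 replication genes were called higher and 29 lower, where 30.5% and 33.6% of all genes were. Mcm5 differed by 1.46 ± 0.081 (edgeR adjusted p = 1.6e-08) and the DNA clamp gene Pcna by 1.07 ± 0.088 (3.7e-07). Genes of G1 control counted 16 higher and 10 lower of 34, beside 30.1% and 29.0% of all genes. With library totals, where more of all genes were lower, these genes counted 9 and 12. Among them the inhibitor Cdkn1a, encoding p21, rose 2.38-fold and the cyclins Ccnd2 and Ccnd3 moved apart, with log2 fold changes of 0.75 and -0.84. Ccnd1 stood at 3.97, 8.51 and 4.14 CPM in iGC and 18.4, 8.01 and 19.8 CPM in PC, with PC replicate 2 close to iGC replicate 2 as in the fibroblast markers. It was called at 1.47, and with PC replicates 1 and 3 left out it was not called (0.53).

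Receptors for homing mostly fell, 19 of 28 lower and 7 higher (median -0.69), beside 29.0% and 30.1% of all genes. Ccr6, a receptor for mucosal entry, had a log2 fold change of -1.67. The follicle receptor Cxcr5, the egress receptor S1pr1 and the integrin chain Itgb7 had log2 fold changes of -0.91, -0.95 and -1.32. The selectin ligand Selplg rose from 31.1, 27.1 and 25.03 to 118, 83.7 and 90.6 CPM (1.81 ± 0.11) and Ccr10, a receptor of plasma cells bound for epithelia, from 0.956, 0.832 and 0.840 to 3.67, 2.37 and 2.72 CPM (1.72 ± 0.26). Ccr7 kept 37.2, 52.2 and 56.1 CPM in PC against 80.9, 84.1 and 77.4 CPM in iGC, a log2 fold change of -0.73 beside -3.67 in IgE cells (difference 2.94 ± 0.18; edgeR adjusted p = 3.9e-08). Among 18 chemokine and cytokine genes 9 were higher and 6 lower, beside 30.1% and 29.0% of all genes. Under a stricter filter, at least 1 CPM in all libraries of any of the 5 groups, the higher ones numbered 4. Vegfa rose from 18.4, 18.6 and 18.0 to 188, 175 and 216 CPM (log2 3.40 ± 0.11; edgeR adjusted p = 8.2e-13). The lymphotoxin genes Lta and Ltb and Tnf fell, at -1.71, -1.34 and -1.53.

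Il10 was seen at 0.420, 0.232 and 0.432 CPM in PC and at 0.0245, 0 and 0 CPM in iGC. Of 19 genes of the BAFF, APRIL and CD40 axis, 3 were higher and 8 lower, beside 30.1% and 29.0% of all genes. Tnfrsf17, described above, rose, and Tnfrsf13c, the BAFF receptor, fell from 308, 296 and 283 to 156, 167 and 160 CPM (-0.87 ± 0.051), as did Cd40 (-1.37). Tnfsf13b, encoding BAFF itself, which the feeder is engineered to express, stood at 1.86, 2.71 and 1.74 CPM in iGC and 12.2, 3.36 and 4.94 CPM in PC. It was called at 1.66, with PC replicate 1 the highest, and was not called with PC replicates 1 and 3 left out (0.67).

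Nuclear genes of oxidative phosphorylation counted 28 higher and 2 lower of 40 (median 0.31), beside 30.1% and 29.0% of all genes. With library totals, where fewer of all genes were higher, these genes counted 14 and 11. The complex I subunit Ndufa1 rose from 22.2, 21.9 and 22.4 to 116, 71.9 and 75.5 CPM (1.98 ± 0.13). The mitochondrial genome went the other way: 10 of its 13 mRNA genes were lower and 1 higher (median -0.92), and with PC replicates 1 and 3 left out 6 were lower. The oxidase subunit mt-Co1 stood at 10620, 9267 and 9852 CPM in iGC and 4664, 6919 and 5264 CPM in PC (-0.82 ± 0.12; edgeR adjusted p = 2.6e-05), while its IgE step was near 0 and not called. Copies of these genes in the nuclear genome and the overlap of mt-Atp8 with mt-Atp6 make single values uncertain. The gene mt-Co3, also counted here, ranged over 11.3 log2 units across the IgG1 PC libraries. Glycolysis genes counted 8 higher and 7 lower of 26, shares near the 30.1% and 29.0% of all genes. With library totals, where more of all genes were lower, these genes counted 4 and 16. The glucose transporter Slc2a3 and the hypoxia factor Hif1a were at -0.94 and -0.96.

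Sterol and fatty acid synthesis genes were lower in 21 of 30 and higher in 3 (median -0.38), beside 29.0% and 30.1% of all genes. The desaturase Scd1 fell from 1244, 1234 and 1267 to 391, 591 and 550 CPM, and the mevalonate enzyme Hmgcs1 was at -0.98. Of 42 cytosolic ribosomal protein genes 4 were higher and 6 lower (median 0.0070), beside 30.1% and 29.0% of all genes. That list depended on the settings: 30 were lower with library totals, which moved the calls of all genes toward lower. Lower members numbered 13 without PC replicate 1 and 1 in a fit of the 6 IgG1 libraries alone. Interferon-stimulated genes counted 7 higher and 15 lower of 32, beside 30.1% and 29.0% of all genes, with Irf7 rising 3.12-fold and Oasl2 at -1.24. Autophagy genes counted 15 higher and 3 lower of 28, beside the same 30.1% and 29.0%. The phosphoinositide-binding Wipi1 rose from 1.20, 1.93 and 1.82 to 19.4, 13.7 and 14.7 CPM and the receptor Sqstm1 2.41-fold. Cytosolic heat shock genes counted 4 higher and 10 lower of 22, beside 30.1% and 29.0% of all genes, with Hspa8 at -0.34.

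By size alone, the 12 largest rises among genes reaching 10 CPM whose libraries did not overlap were Bhlha15, Hid1, Sdc1, Ankrd55, Tigit, Derl3, Cpeb3, Reln, Prdm1, Sec24d, Jchain and Rbm47. Hid1, a Golgi protein of secretory granule formation, stood at 0.417, 0.403 and 0.464 CPM in iGC and 107, 68.5 and 73.8 CPM in PC (log2 7.59 ± 0.22; edgeR adjusted p = 6.2e-13). Cpeb3, a regulator of mRNA translation, went from 0.956, 0.886 and 0.869 to 53.2, 52.7 and 52.3 CPM, with the PC libraries within 1 CPM of each other. Reln, the extracellular matrix protein reelin, went from 1.89, 1.503 and 1.19 to 78.2, 86.6 and 72.3 CPM, and the RNA-binding protein Rbm47 from 1.57, 1.18 and 0.985 to 55.7, 49.7 and 49.3 CPM. Ankrd55 rose 99.4-fold.

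The 12 largest falls were those of Mybl1, mt-Atp8, Nxpe2, Bcl6, Cr2, Samd9l, March1, Gpr34, Icosl, Hemgn, Lilrb4a and Rflnb. They were shallower, from -2.73 to -2.10. Icosl, the ligand through which B cells engage follicular helper T cells, fell from 80.7, 78.8 and 82.6 to 14.0, 18.7 and 19.6 CPM (log2 -2.20 ± 0.10; edgeR adjusted p = 7.2e-11), against -4.59 in IgE cells (difference 2.39 ± 0.16; edgeR adjusted p = 5.7e-08). Nxpe2 went from 44.3, 45.4 and 47.5 to 4.41, 11.2 and 7.62 CPM and Hemgn, a nuclear protein of blood cells, from 42.8, 37.2 and 35.3 to 5.53, 10.7 and 9.80 CPM. In both, PC replicate 1 was the lowest and replicate 2 the highest of the PC libraries. Lilrb4a belongs to a family of close relatives and its value is uncertain.

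**Figure D5:**
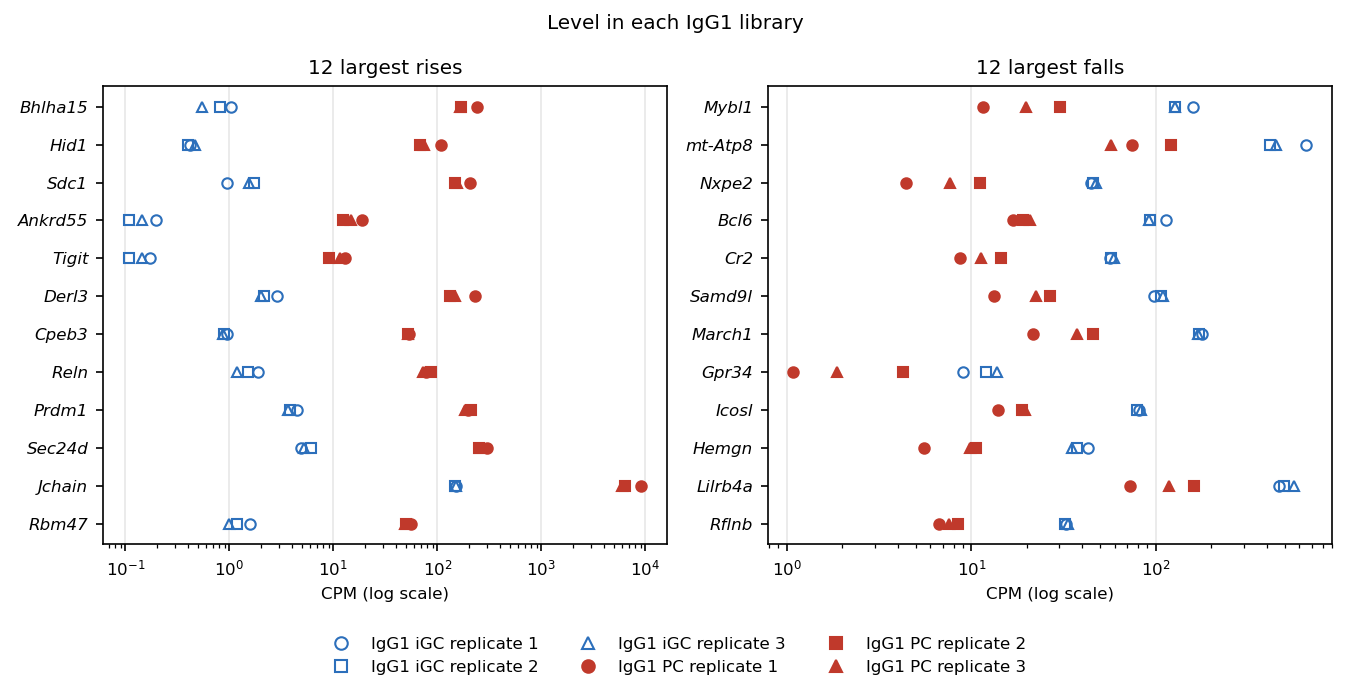
CPM on a log axis in each IgG1 library of the 12 largest rises (left) and 12 largest falls (right); symbols mark the replicate, open iGC and filled PC. PC replicate 1 is the highest PC library for every rise except Reln and Prdm1 and the lowest for every fall except mt-Atp8.

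The spread inside the IgG1 PC group was uneven. Among genes at 10 CPM or more, 151 (1.76%) ranged over more than 1 log2 unit between the 3 IgG1 PC libraries. In each of the other 4 groups 8 to 46 genes did, and the median range was 0.27 against 0.097 to 0.12. The fit pools the spread of each gene over all 15 libraries, so SEs and p-values of the IgG1 step can be too small. The largest ranges, given as a description, were those of mt-Co3, listed at 0, 136 and 35.8 CPM in PC, the near-identical 7SL genes Rn7s1 and Rn7s2, Mid1, C3, Thbs1, Pagr1a, S100a6, Mir6236 and Fn1. Thbs1 and Fn1 are on the fibroblast list. C3, Thbs1 and S100a6 had PC replicate 1 highest and replicate 2 lowest, with C3 at 52.2, 11.8 and 34.3 CPM, and Fn1 had replicate 2 lowest at 23.6, 9.24 and 32.5 CPM. Deviations moved with transcript length. In IgG1 PC replicate 1 the median deviation from the group mean went from 0.13 for the 2172 genes with the shortest transcripts to -0.16 for the 2171 with the longest, and in replicate 2 from -0.089 to 0.13. In the iGC libraries it stayed between -0.029 and 0.028. The IgG1 step itself had medians of 0.088, -0.064, -0.12 and -0.17 from the shortest to the longest of 4 such groups, and the IgE step of -0.017, -0.062, -0.013 and 0.098. The part of length in the gene results was not tested.

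Compared with IgE cells, 1285 genes were at least 2-fold higher in both steps, 58.3% of the IgG1 set and 59.9% of the IgE set of 2146. At least 2-fold lower in both were 608, 77.2% of the IgG1 set but 28.5% of the 2136 in IgE cells. The 2 steps share no library. Called in opposite directions, with the difference itself called, were 612 genes (3.9%). By the size of the difference, the leading genes that rose in IgG1 cells were Lgals3, Nrgn, S100a6, Emp1, Acot7 and Ephx1, and those that fell Carmil1, Zfp966, Itga4, Arhgap5, Smim10l1 and Sos1. Nrgn, a calmodulin-binding protein, stood at 4.59, 3.19 and 3.01 CPM in IgG1 iGC and 13.0, 13.1 and 12.6 CPM in IgG1 PC (1.84 ± 0.20; edgeR adjusted p = 1.2e-06), while its IgE step was -1.15. Itga4, an integrin chain that binds VCAM-1, fell from 180, 171 and 189 to 79.3, 143 and 120 CPM (-0.66 ± 0.14; 0.0013) with an IgE step of 0.89. The exchange factor Sos1, which activates RAS, fell by 0.41 with an IgE step of 0.91, and with PC replicates 1 and 3 left out its fall was not called (-0.20). The same held for Lgals3, at 0.92, and S100a6, at 0.51, which followed the fibroblast markers across the PC libraries (27.6, 8.84 and 22.4 CPM for Lgals3).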

How the data were processed

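RNA-seq libraries of polyA RNA (76 bp single-end, strand-specific reads, per the labels' protocols) were deposited as 1 table with an expected count and a TPM value per gene and library, per the file headers; the authors made these RSEM expected counts without further normalization. The TPM values the authors deposited, scaled for transcript length and library size, served only as an alternative for the immunoglobulin share. RSEM 1.3.0, STAR 2.5.2a, cutadapt 1.9.1, DESeq2 1.12.3 and GRCm38 are named in the submitters' processing notes, and the annotation release was not given in the sources used here. Symbols were matched to 51633 of 51912 gene identifiers.

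Expected counts were rounded to whole numbers. edgeR 4.0.16 in R 4.3.3 fitted all 15 libraries with 1 mean per group, after TMM scaling and a filter for low counts (filterByExpr, minimum 10 per library and 15 in total), and its quasi-likelihood test gave p-values adjusted over 15692 genes (Benjamini-Hochberg), called below 0.05. Fold changes are edgeR log2 estimates or these estimates turned back from the log2 scale. Each SE is the absolute log2 estimate divided by the square root of its quasi-likelihood F statistic. The difference between the IgG1 and IgE steps was an interaction contrast in the same fit. Alternatives were DESeq2 1.42.0, other scalings and filters, only the 6 IgG1 libraries, the replicate number as a block and each IgG1 library left out. No IgE or day 6 library was left out. After the data were seen, 2 more were added: IgG1 PC replicates 1 and 3 left out, and the 6 libraries with the block.

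Named genes were the 12 largest rises and 12 largest falls with at least 10 CPM and no overlap between the groups, the 10 with the widest range over the IgG1 PC libraries, 6 in each direction that were called oppositely in IgE cells, and members of 32 functional lists, mainly those with the smallest p-values and textbook members; 895 of 959 listed genes were tested. Members and lists were chosen with earlier results of these data known, lists overlap (Xbp1 and Bcl6 are in more than 1), and no test of a list was run. Some members enter the counts of their lists and are not reported here by name. Promoter windows came from RefSeq (GRCm38.p6) and gene spans from the GRCm38 annotation.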

Additional observations from a re-analysis of the deposited data

Results flagged for a closer look

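The genes in this section were called in opposite directions in the plasma cell steps of the 2 isotypes, with the difference itself called (edgeR's interaction test, 3 libraries per group, adjusted p below 0.05). Differences are the IgG1 log2 fold change minus the IgE one.

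Of those above 0, Lgals3 had a difference of 3.15 (2.06 in IgG1 and -1.09 in IgE) and Nrgn of 2.99 (1.84 and -1.15), with all IgG1 PC libraries near 13.0 CPM for Nrgn (13.0, 13.1 and 12.6). S100a6 followed with 2.93 (1.76 and -1.17) and Emp1 with 2.87 (1.80 and -1.06). For Lgals3, S100a6 and Emp1 the IgG1 PC libraries 1 and 3 were the high ones, as with the fibroblast markers, and with these libraries left out Lgals3 and S100a6 were not called in IgG1 (0.92 and 0.51). The part of these markers in the differences was not tested. Acot7, an acyl-CoA thioesterase, differed by 2.81 (0.40 and -2.42) and Ephx1, an epoxide hydrolase, by 2.79 (0.65 and -2.15). Their IgG1 rises were not called without PC replicate 1 (0.31 and 0.52) or with library totals (0.16 and 0.41). For Acot7 the same held without PC replicate 3 (0.35), iGC replicate 1 (0.39) or iGC replicate 3 (0.37), and for Ephx1 without iGC replicate 3 (0.48). The replication genes Mcm5 and Pcna differed by 1.46 (0.28 and -1.18) and 1.07 (0.28 and -0.78). Their IgG1 rises were not called with library totals (0.049 and 0.050).

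Those below 0 were Carmil1, a regulator of actin capping, at -1.82 (-0.90 and 0.92), Zfp966 at -1.82 (-0.61 and 1.21), Itga4 at -1.55 (-0.66 and 0.89), Arhgap5 at -1.47 (-0.92 and 0.55), Smim10l1 at -1.38 (-0.36 and 1.02) and Sos1 at -1.33 (-0.41 and 0.91). The amino acid transporter Slc7a1 stood at -1.21 (-0.20 and 1.00) and Bcl2 at -1.02 (-0.54 and 0.47). The IgG1 fall of Zfp966 was not called without PC replicate 3 (-0.56) or iGC replicate 1 (-0.54), and that of Slc7a1 without iGC replicate 1 (-0.18).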

How the results depend on the processing

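The 9273 calls became 6429 to 10066 over the alternatives. With library totals 6840 genes were lower and 1369 at least 2-fold lower, and the members called higher were 1 pro-apoptotic gene, 7 caspase and execution genes, 10 replication, 8 mitosis, 9 G1, 4 glycolysis and 14 oxidative phosphorylation genes. With library totals, where 6840 of 15692 genes were lower, 30 ribosomal protein genes were lower. Under that scaling the IgG1 step lay above the IgE step in 41 ribosomal genes (26 with TMM). The share of all genes above the IgE step under that scaling is not given here. With IgG1 PC replicates 1 and 3 left out, 471 genes were at least 2-fold lower, 5 glycolysis genes higher, 6 mitochondrially encoded and 14 ribosomal genes lower, 3 fibroblast markers higher and 12 ribosomal genes above the IgE step. Under the stricter filter 4 chemokine genes were higher. With only the 6 IgG1 libraries 1 ribosomal gene was lower, and with the replicate block added 1 again, with 5 glycolysis genes and 7 fibroblast markers higher. The immunoglobulin difference was 33.15 percentage points from TPM and 11.99 from constant region genes alone. The cause of these shifts was not tested.

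Leaving out 1 IgG1 library at a time gave 8326 to 9803 calls (4212 to 4865 higher, 4114 to 4938 lower). At least 2-fold higher were 2023 to 2435 genes and lower 598 to 1101. There were 6040 to 7418 differences from the IgE step, whose own libraries were all kept. Pro-apoptotic genes called higher numbered 3 to 5 and ribosomal genes called lower 4 to 13. The immunoglobulin difference was 14.28 to 17.49 points. Among named genes, library totals turned the direction of Dnajc1 (-0.035), Stim1 (-0.23), Tnfrsf13b (-0.21) and the isotype difference of Pou2af1 (0.18).

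The replicate number as a block gave 9152 calls (4627 higher and 4525 lower), 6533 isotype differences and the same immunoglobulin difference of 16.29 points (exact sign-flip p = 0.25, the smallest possible). Deviations from the group mean of IgG1 libraries with equal numbers correlated at -0.049, -0.20 and -0.073. Replicate-specific spread enters these values, so they cannot tell whether equal numbers share a mouse or a culture. Depth limits genes under 1 CPM, which hold 722 of the 2206 rises of at least 2-fold.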
